A study of Sus scrofa with 5 samples.

Results

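The cells described here are the *TP63*-high cells of day 6 porcine blastoids. They were chosen by measured values, as barcodes with at least 11223 unique molecular identifiers (UMIs, the count of captured RNA molecules) in library 1 or 9805 in library 2 that held at least 4 UMIs of *TP63*, under 10 of *GABRP*, under 10 of *ISG15*, under 5 of *POU5F1* and under 15 of *CRABP1*. Of 15544 cells in all, 1843 met this rule, 989 of 7369 in library 1 (13.4%, Wilson 95% interval 12.7 to 14.2%) and 854 of 8175 in library 2 (10.4%, 9.80 to 11.1%). The intervals cover counting error only.

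Blastoids are blastocyst-like structures grown from stem cells. Both libraries hold the same condition, day 6 structures made from porcine ESCs, which were aggregated in 4FXY medium and then kept in iBlastoid medium. Structures with a cavity, an inner compartment and an outer layer had been picked by hand before they were dissociated with trypsin for 10x Genomics sequencing, and the counts do not tell single structures apart. Nothing in the labels says that the libraries came from separate cultures, and there is no second condition, so each value below is given for library 1 and then library 2, and no test was made. Median depth was 29728 and 27588 UMIs per cell, and 9 cell barcodes occurred in both libraries.

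*TP63* encodes p63, a transcription factor of the p53 family that epithelia with a basal layer depend on. In the embryo it is switched on as the non-neural surface ectoderm forms, beside *TFAP2A*, *GRHL2* and the *DLX* genes, and it is later kept in the basal layer of the epidermis with the keratins *KRT5* and *KRT14*. The trophectoderm, the outer layer of the blastocyst, and the amnion use several of the same factors, such as *GATA2*, *GATA3*, *TFAP2A* and *TFAP2C*, with the simple keratins *KRT8* and *KRT18*, and p63 is also known from trophoblast. *CDX2*, *EOMES* and *ASCL2* are more particular to trophoblast, and stratified-epithelium keratins to surface ectoderm that matures. The question asked of the counts was which of these marker sets the *TP63*-high cells carried.

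*TP63* was widespread. At least 1 UMI was found in 49.1% and 42.1% of all cells, and 1920 and 1651 cells reached 4 UMIs. Of those, 931 and 797 were left out by another gate, mostly by *GABRP* (776 and 663 cells), then *ISG15* (219 and 193), *POU5F1* (75 and 74) and *CRABP1* (31 and 24), with some cells over more than 1 gate. The *TP63*-high cells held 43.9% and 40.8% of all *TP63* UMIs. Their own *TP63* count ranged from 4 to 68 (median 7) in library 1 and from 4 to 51 (median 7) in library 2.

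No gap in the counts marked the threshold. Among cells under the other 4 gates, 206 and 229 had exactly 3 *TP63* UMIs and 175 and 165 exactly 4. As a description, cells with 3 UMIs held *TP63* at 98.1 and 104 counts per 1000000 UMIs of the summed cells (CPM) and cells with 4 at 133 and 137. The cells on either side of the threshold were also close in genes that the rule did not use, with *SYNPO2* at 60.7 and 55.4 CPM against 64.9 and 70.8 and *TFAP2A* at 356 and 333 against 347 and 354. *TP63* lies on chromosome 13 at 127115990 to 127347082 on the plus strand of Sscrofa11.1. RefSeq lists 9 transcripts there with 8 starts and 3 ends, and counts summed per gene do not tell them apart.

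**Figure D1:**
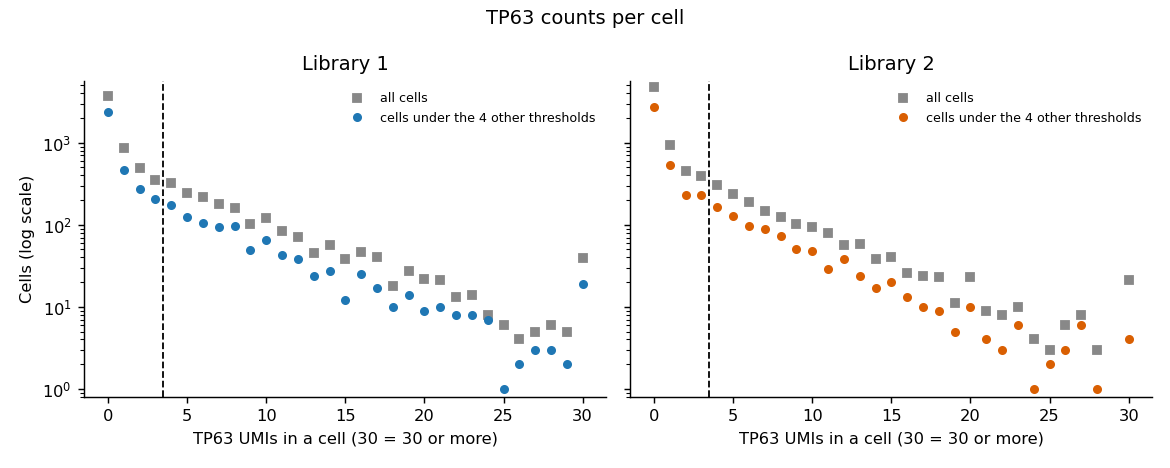
Number of cells (log scale) by *TP63* UMIs in the cell, for all cells (squares) and for cells under the other 4 gates (circles), per library. The dashed line marks the threshold of 4 UMIs, and the numbers of cells run on across it without a break.

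The *TP63*-high cells differed little from the rest in most genes. Counts were summed over the *TP63*-high cells and over all other cells of each library, and 11205 genes with at least 5 CPM on either side in both libraries were compared, without the 5 genes of the rule. Of these, 10381 (92.6%) were within 1.5-fold in both libraries. Only 18 (0.161%) were at least 2-fold higher in both libraries and 175 (1.56%) at least 2-fold lower. Since the cells were selected on the same counts, these numbers describe the cells and test nothing.

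The genes at the upper end were not the textbook markers of any of the lineages above. *SYNPO2*, an actin-binding protein, stood at 81.8 and 83.9 CPM against 25.8 and 24.1 in all other cells, a log2 fold of 1.63 and 1.76 on the log2(CPM + 1) scale. *C6H16orf74* stood at 183 and 192 CPM against 65.1 and 73.3, and *SAMD5* at 45.6 and 37.1 against 16.6 and 14.1. *CACNA2D3*, an auxiliary subunit of calcium channels, had 207 and 205 CPM against 81.9 and 74.6. The libraries lay close together for each of these genes. Free RNA, measured in empty droplets (barcodes with 10 to 100 UMIs), was below the level in the *TP63*-high cells for all 4, at 19.5 and 17.1 CPM for *SYNPO2* and 112 and 126 for *C6H16orf74*.

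*RAB38*, a small GTPase of vesicle transport, stood at 99.96 and 96 CPM against 40.2 and 38.6, and *PPP2R2B*, a regulatory subunit of protein phosphatase 2A, at 117 and 107 against 48.9 and 44.6. *TACR1*, the receptor of substance P, had 43.2 and 42.1 CPM against 17.8 and 14.4. The secreted guidance cue *SEMA3E* had 66.9 and 69.4 CPM against 31.1 and 32.01. *OLFM3*, *DOCK8*, *SLC24A2* and *SLC25A21* were also at least 2-fold higher in both libraries, as was an uncharacterized locus. *OLFM3* had 36.3 and 33.02 CPM against 14.97 and 12.5, the guanine nucleotide exchange factor *DOCK8* 35.1 and 33.6 against 15.6 and 12.6, the ion exchanger *SLC24A2* 30.8 and 26.2 against 12.4 and 11.6 and the mitochondrial carrier *SLC25A21* 77.3 and 77.3 against 36.9 and 34.5.

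The remaining genes include a p53 family target, an epithelial serpin and a homeobox gene. *RNF144B*, an E3 ubiquitin ligase known as a p53 family target, stood at 148 and 147 CPM against 70.7 and 63.99. *SERPINB5*, the epithelial serpin maspin, was low at 8.17 and 6.74 CPM against 3.55 and 2.56, and it was named here after its values were seen. The homeobox gene *TLX1* stood at 26.2 and 26.5 CPM against 11.6 and 9.31. The chloride channel gene *ANO1*, also named after its values were seen (15.6 and 15.3 CPM against 4.23 and 4.44) and 1 more uncharacterized locus complete the 18.

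Further genes of at least 20 CPM lay at the 2-fold line. *WNT4*, a secreted WNT ligand, had 37.5 and 36.96 CPM against 18.2 and 17.9 (log2 fold 1.00 and 1.01), the nuclear receptor *NR2F2* 43.99 and 47.3 against 22.6 and 21.1, the cell adhesion gene *OPCML* 41.1 and 42.5 against 20.7 and 20.4, and the coat protein gene *SEC24D* 129 and 132 against 66.6 and 66.2. In absolute amount the largest gain was in *CXCL14*, a chemokine made by epithelia, which was picked out after its values were seen. It took 9537 and 9245 CPM in the *TP63*-high cells and 5692 and 5079 in all other cells, a fold of 1.68 and 1.82. It was also abundant in empty droplets, at 7000.1 and 6269.8 CPM.

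Of the surface ectoderm factors, 16 of 17 were measured well enough to compare, none was 2-fold higher and 2 were 2-fold lower. Over all compared genes 0.161% were higher and 1.56% lower by this measure. A count of 0 higher genes therefore says little for this list or the short lists that follow. The list's median log2 fold was 0.07 and 0.06, beside 0.00 and -0.01 over all compared genes. *TFAP2A*, an early factor of the non-neural ectoderm, stood at 371 and 357 CPM against 276 and 253, and *GRHL2*, which maintains epithelial junctions, at 388 and 354 against 307 and 293. *WNT6*, a ligand of the surface ectoderm, had 147 and 135 CPM against 100.3 and 88.2. These 3 were higher in both libraries, each by less than 2-fold.

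The other members of that list split in both directions. *BARX2* was low but higher in the *TP63*-high cells (6.41 and 6.71 CPM against 4.03 and 4.09), and *DLX3*, *OVOL1*, *OVOL2* and *TFAP2B* were within 1.5-fold of the other cells in both libraries, with *DLX3* at 33.7 and 30.5 CPM, *OVOL1* at 30.2 and 27.5, *OVOL2* at 7.24 and 6.74 and *TFAP2B* at 12.4 and 13.9. *KLF5* stood at 16.04 and 15.2 CPM against 17.4 and 15.03. *DLX5* (69.9 and 70.6 CPM against 92.7 and 97.7), *DLX6* (8.11 and 8.66 against 9.66 and 10.2) and *MSX2* (79.8 and 67.7 against 94.5 and 81.3) were lower. *GRHL3*, which acts in the surface ectoderm during neural tube closure, had 5.48 and 7.96 CPM against 10.8 and 15.3. The pair past 2-fold were *MSX1* at 15.3 and 7.48 CPM against 33.8 and 22.9 and *HAND1* at 60.4 and 31.99 against 142 and 94.7. The list counts *HAND1* although it is a factor of trophoblast, amnion and mesoderm and not particular to surface ectoderm. Both *MSX1* and *HAND1* were far higher in cells with at least 20 *COL3A1* UMIs, *MSX1* at 229 and 274 CPM and *HAND1* at 701 and 742. The part of such cells in the difference was not tested.

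Keratins of the basal epidermis were nearly absent. *KRT5* gave 8 and 7 UMIs over all *TP63*-high cells, 0.248 and 0.258 CPM, with an exact 95% Poisson interval of 0.107 to 0.488 CPM in library 1 and 0.104 to 0.531 in library 2, each for counting error only, against 0.144 and 0.0631 in all other cells. It was found in 8 of 989 and 7 of 854 cells. The symbol *KRT14* is not among the count files' names. The locus that RefSeq calls keratin, type I cytoskeletal 14 gave 0 and 1 UMI, and a locus called 14-like gave 21 and 19 UMIs, 0.65 and 0.7 CPM against 1.1 and 1.74 in all other cells. These loci and those of the next paragraph were looked up by product name after the counts were seen. *KRT15* (0.929 and 0.479 CPM against 0.41 and 0.24), the hemidesmosome collagen *COL17A1* (0.898 and 0.848 against 0.613 and 0.547) and *LAMB3* (0.774 and 0.442 against 0.916 and 1.05), a laminin chain of the basement membrane, stayed under 1 CPM.

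Other genes of the list were measured at higher levels, and the list summed to 526 and 505 CPM against 450.03 and 444 in all other cells. Of the 13 basal epidermal genes 7 were compared, none was 2-fold higher or lower in both libraries, and their median log2 fold was 0.37 and 0.15. *TRIM29* came closest, at 7.8 and 6.41 CPM against 2.84 and 2.96 (log2 fold 1.20 and 0.90), and it passed 2-fold in library 1 alone. *CD44* (6.1 and 6.52 CPM against 3.86 and 4.44), the plakin gene *DST* (239 and 224 against 183 and 177) and the hemidesmosome integrin *ITGB4* (7.31 and 6.63 against 5.41 and 5.89) were higher by less. *PERP*, a desmosome gene and p63 target, was close to the other cells at 208 and 208 CPM against 195 and 197, as was *ITGA6* (46.8 and 42.2 against 49.01 and 47.03).

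Keratins of the periderm, the flat outer cell layer of early epidermis, and of other stratified epithelia were also scarce. *KRT4* gave no UMI in either library, which allows up to 0.114 and 0.136 CPM (exact 95% Poisson bound), and *KRT6A* gave 1 UMI in each. The locus named keratin 13 gave 4 and 2 UMIs, the locus named keratin 17 gave 2 and 3, and the 16-like and 6A loci gave none. The periderm list as a whole summed to 285 and 302 CPM against 287 and 295, and of its 10 genes 5 were compared and none passed 2-fold. *SFN*, which the study counted among its trophectoderm genes and which p63 also controls in epidermis, stood at 158 and 167 CPM against 171 and 171, and the kinase *RIPK4* at 20.7 and 20.7 against 17.7 and 17.6.

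Simple epithelial genes were abundant and alike in both sets of cells. *KRT8* took 4628 and 4362 CPM against 4930.1 and 4498 and *KRT18* 3434 and 3643 against 3928 and 3870.3. *KRT19* stood at 1234 and 1204 against 1095 and 1087 and *KRT7* at 326 and 341 against 307 and 304. These 4 keratins summed to 14424 and 13132 CPM in empty droplets, above the 9622 and 9550 in *TP63*-high cells. The part of free RNA in their level was not tested. None of the 15 epithelial adhesion genes passed 2-fold (median log2 fold 0.05 and 0.01), with *EPCAM* at 246 and 253 CPM against 239 and 257, *CDH1* at 156 and 146 against 167 and 169.7 and *CLDN3* at 265 and 277 against 214 and 223.

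Of the 12 trophectoderm factors, 8 were compared and none passed 2-fold in either direction (median log2 fold 0.15 and 0.20). *GATA3*, by which the study named its trophectoderm-like cells, stood at 130.4 and 122 CPM against 132 and 124, and *GATA2* at 72.9 and 70.9 against 62.6 and 60.2. Neither set the *TP63*-high cells apart from the other cells by more than 1.2-fold. *PPARG* (45.4 and 44.4 CPM against 32.2 and 30.7) and *ELF5* (116 and 114 against 89.4 and 84.04), which is known from trophoblast stem cells, were higher by less than 2-fold.

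*TEAD4*, which acts upstream of trophectoderm fate, was level at 19.3 and 18.5 CPM against 18.2 and 16.3. *TFAP2C* (36.8 and 32.6 CPM against 41.4 and 40.98) and *ELF3* (13.4 and 13.3 against 18.97 and 21.1) were lower. The 4 factors that could not be compared were all scarce. *CDX2* gave 12 and 8 UMIs over all *TP63*-high cells, 0.371 and 0.295 CPM (exact 95% Poisson intervals 0.192 to 0.649 and 0.127 to 0.581), against 0.943 and 1.02 in all other cells. *EOMES* gave 0.681 and 0.258 CPM against 3.31 and 3.05, *ASCL2* 1.24 and 1.36 and *VGLL1* 1.42 and 1.47. Of 5 compared products of the pig trophoblast none passed 2-fold. *CYP17A1*, a steroid-making enzyme, had 124 and 105 CPM against 165 and 126, *PTGES* 33.3 and 33.8 against 44.9 and 57.04 and *CYP11A1* 4.89 and 6.01 against 6.69 and 9.84. *PTGS2* had 45.3 and 44.2 CPM against 40.2 and 40.8. *CYP19A1* gave 0.619 and 0.7 CPM, *HSD3B1* 0 and 1 UMI, and *IFNG* and *IL1B* no UMI in either library.

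Of the 11 amnion genes 8 were compared, none was 2-fold higher and *VTCN1* and *CLDN10* were 2-fold lower (median log2 fold -0.83 and -0.51). Neither was 2-fold lower in both libraries against the cells under all 5 thresholds. *GABRP* belongs to this list and to the rule, so its level of 90.6 and 92.3 CPM against 232 and 204 is a consequence of the choice. *VTCN1* had 5.48 and 4.61 CPM against 14.1 and 11.3 and *CLDN10* 125 and 122 against 351 and 403. *ITGB6* (7.27 and 6.45 against 13.9 and 11.3), *BMP4* (27.6 and 23.3 against 49.6 and 36.7) and *POSTN* (9.81 and 8.55 against 18.2 and 11.4) were lower by less. *ISL1*, a LIM-homeobox factor of the amnion, was higher at 71.6 and 61.1 CPM against 55.5 and 42.7. *HEY1* (8.05 and 8.37 against 9.69 and 7.95) and *TNC* (93.5 and 94.4 against 114 and 90.4) differed in sign between the libraries.

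**Figure D2:**
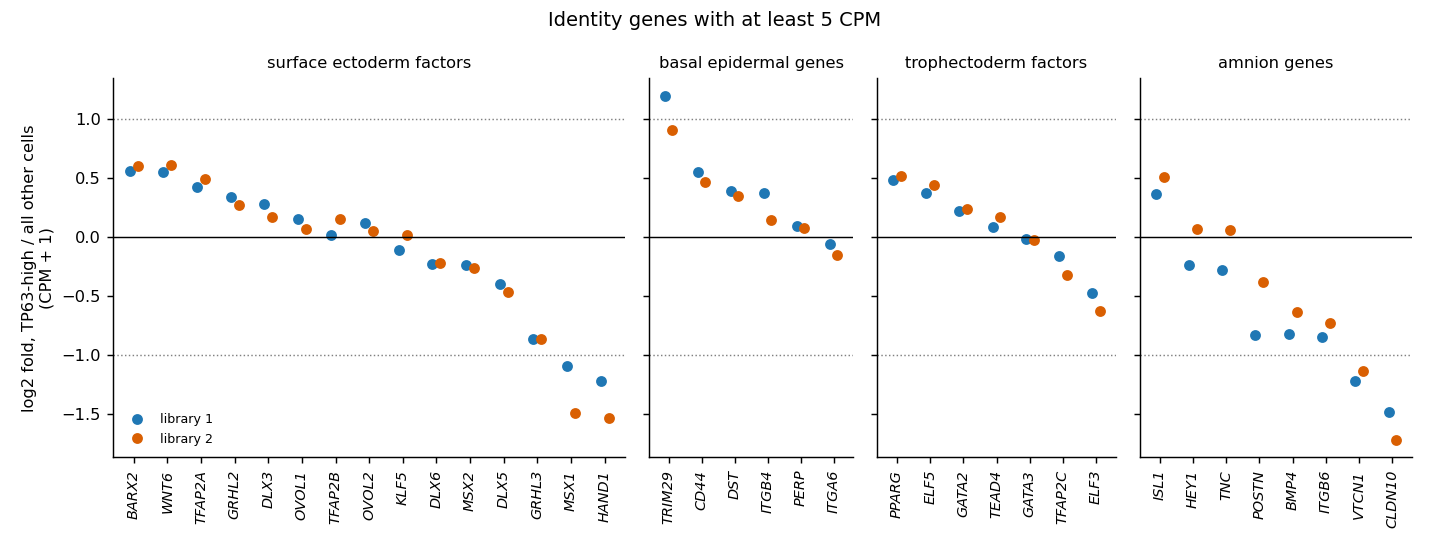
Log2 fold of *TP63*-high over all other cells (CPM + 1) for compared genes of the 4 identity lists, with library 1 and library 2 side by side and dotted lines at 2-fold. Only *TRIM29* in library 1 lies above the upper line, while *MSX1*, *HAND1*, *VTCN1* and *CLDN10* lie below the lower line in both.

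The label surface ectoderm-like was checked against these lists. *TFAP2A*, *GRHL2*, *GATA2*, *GATA3*, *KRT8* and *KRT18*, which surface ectoderm shares with trophectoderm or amnion, were measured in the *TP63*-high cells at levels near those of all other cells. Those other cells include the 931 and 797 cells with at least 4 *TP63* UMIs that another gate left out. A comparison with *TP63*-low cells is given below. *KRT5*, *KRT15*, *KRT4* and *KRT6A* on the epidermal side and *CDX2*, *EOMES*, *ASCL2* and *VGLL1* on the trophoblast side were each under 2 CPM. These are list genes that fell under the 5 CPM minimum. They were scarce in all other cells too (*KRT5* 0.144 and 0.0631 CPM, *CDX2* 0.943 and 1.02), so their scarcity is not particular to the *TP63*-high cells. Better measured genes of the lists, *DST* and *PERP* on the epidermal side and *ELF5* and *PPARG* on the trophoblast side, were not 2-fold higher. Neither scarce set was at a level that would name the cells, so the cells are called by *TP63*. No embryo cells were analysed here as a reference.

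Genes known to be controlled by p63 were checked as a list of 25, of which 21 were compared. None was 2-fold higher, *FST* was 2-fold lower and the median log2 fold was 0.22 and 0.15. *RNF144B*, described above as a p53 family target and 2-fold higher, is not part of this list, so the count covers the listed genes only. *FGFR2*, a receptor of epidermal growth signals, stood at 181 and 162 CPM against 118 and 104, the Notch ligand *JAG2* at 9.41 and 8 against 4.53 and 4.52 (log2 fold 0.91 and 0.70), and the cell cycle inhibitor *CDKN1A* at 42.6 and 39.2 against 29.8 and 28.3. The basement membrane gene *FREM2* had 120.4 and 119 CPM against 93.6 and 86.8, while its relative *FRAS1* was lower at 168 and 162 against 217 and 204.

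Far more genes were 2-fold lower than higher, among them genes of other lineages. Of the 10 furthest down with at least 20 CPM in the other cells, *ERAS* stood at 6.22 and 9.07 CPM against 66.02 and 97.7, *HESX1* at 5.08 and 6.96 against 31.2 and 47.4, *FST* at 6.25 and 6.56 against 33.3 and 46.3, *NTM* at 3.93 and 4.13 against 21.7 and 37.2 and *LRRC4C* at 22.97 and 21.9 against 96.2 and 121. *S100A6* had 200.4 and 205 CPM against 902 and 822, *TAC3* 8.98 and 6.3 against 59.4 and 40.1 and *IFITM3*, an interferon-induced gene, 8.64 and 7.66 against 51.5 and 46.6. *ZIC2*, a neural and epiblast factor, had 6.44 and 8.51 CPM against 31.7 and 40.3, and 1 uncharacterized locus completes the 10. The other cells include those that the gates on *POU5F1*, *GABRP*, *ISG15* and *CRABP1* removed. In cells under all 5 thresholds, which pass these same gates, *ERAS* stood at 27.4 and 45.1 CPM, *S100A6* at 263 and 291, *TAC3* at 7.37 and 6.2 and *IFITM3* at 10.5 and 9.64.

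By list, 7 of 8 mesenchymal genes were 2-fold lower (*COL3A1* 43.4 and 15.04 CPM against 141 and 79.9, *VIM* 53.3 and 23.6 against 171 and 121), and so were 4 of 7 compared neural genes (*CDH2* 28.5 and 27.4 against 82.03 and 88.3, *PAX6* 8.14 and 11.9 against 23.9 and 25.8) and 3 of 5 compared pluripotency genes (*DNMT3B* 11.8 and 13.01 against 41.7 and 69.7, *UTF1* 22.4 and 20.1 against 51.9 and 64.7). Over all compared genes the share 2-fold lower was 1.56%. *SOX2*, used by the study for its epiblast-like cells, had 18.1 and 21.2 CPM against 30.3 and 40.2. Of the hypoblast genes 3 of 5 were lower, among them *GATA4* at 6.13 and 1.7 CPM against 14.6 and 6.83 and *GATA6* at 10.5 and 4.79 against 24.7 and 16.2. Neural crest genes (2 of 5, *SOX9* at 5.67 and 6.08 against 13.8 and 14.02 and *PAX3* at 2.51 and 2.87 against 8.56 and 10.9) and cranial placode genes (1 of 6, *PAX6*) followed. *EYA1*, a placode factor, was higher at 92.7 and 90.6 CPM against 70.8 and 71.3. Of 5 cardiac genes none passed 2-fold in both libraries, with *MYL7* at 56.3 and 32.1 against 101 and 56.1. Of 3 compared interferon genes *IFI6* was lower at 32.1 and 27.9 against 104 and 98.8. The gates on *POU5F1* and *ISG15* bear on the pluripotency and interferon lists. Against cells under all 5 thresholds, which pass these gates, none of 5 compared pluripotency genes and none of 2 compared interferon genes was 2-fold lower. All 8 mesenchymal genes and 4 of 7 neural genes were lower there. Against the *GABRP*-high cells described below, none of 5 compared mesenchymal, 6 neural, 5 pluripotency and 2 hypoblast genes was 2-fold lower. The neural median log2 fold against those cells was 0.65 and 0.81, beside 0.12 and 0.12 over all compared genes.

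In the signalling lists no gene was 2-fold higher, beside 0.161% of all compared genes, so a count of 0 in such short lists says little. Among BMP genes 1 of 14 was lower (*MSX1*), while the receptor *BMPR1B* stood at 194 and 192 CPM against 132 and 124 and the target *ID1* at 286 and 263 against 349 and 339. Among WNT genes *NKD1*, a feedback target, was lower (8.61 and 1.95 against 19.5 and 11.6), and *LEF1* stood at 33.03 and 32.2 against 53.5 and 47.3. Among FGF genes *ETV5* was lower (6.66 and 7.48 against 17.6 and 23.5), and *DUSP6*, a feedback phosphatase, had 7.68 and 6.78 against 14.8 and 14.5. None of 8 Notch genes passed, with the ligand *DLL1* at 12.9 and 12.2 against 7.63 and 7.62. In the retinoic acid list the degrading enzyme *CYP26A1* was lower (30.2 and 30.99 against 101 and 125), while the synthesizing enzyme *ALDH1A1* had 20.5 and 25.98 CPM against 14.5 and 15.6 and the receptor *RARB* 56.7 and 65.5 against 41.5 and 43.2.

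To separate the *TP63* gate from the other gates, the *TP63*-high cells were set beside 4 further groups. *TP63*-low cells were under all 5 thresholds (3333 and 3747 cells). *GABRP*-high cells had at least 10 *GABRP* UMIs and stayed under the *POU5F1*, *CRABP1* and *ISG15* gates (1363 and 1206), and 47.2% and 43.1% of them also held at least 4 *TP63* UMIs. *POU5F1*-high cells had at least 5 *POU5F1* UMIs and stayed under the *GABRP*, *CRABP1* and *ISG15* gates (762 and 1240). *COL3A1*-high cells had at least 20 *COL3A1* UMIs and under 4 of *TP63* (439 and 312), and served as a reference for background RNA. They were not free of epithelial RNA. Simple keratins summed to 6881 and 6523 CPM there against 9622 and 9550 in *TP63*-high cells. Epithelial adhesion genes summed to 1599 and 1498 CPM against 2824 and 2874. How much of this was free RNA was not tested. Of the *TP63*-low cells, 384 and 281 were also *COL3A1*-high.

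Against *TP63*-low cells, 55 of 11190 compared genes (0.492%) were at least 2-fold higher in both libraries and 176 (1.57%) at least 2-fold lower. Among those higher were *DOCK8* (35.1 and 33.6 CPM against 7.85 and 6.32), *SYNPO2* (81.8 and 83.9 against 23.7 and 24.2), *SLC24A2* (30.8 and 26.2 against 8.41 and 8.14) and *WNT4* (37.5 and 36.96 against 10.4 and 12.6). The phosphodiesterase gene *PDE3A* had 420.1 and 400.2 against 149 and 125 and the tight junction gene *CLDN1* 58.5 and 60.3 against 24 and 24.6. In this comparison 1 gene of each of 3 identity lists (surface ectoderm, basal epidermal and trophectoderm) was 2-fold higher and none of the amnion list. Among them were *WNT6* (56.7 and 56.9 CPM in *TP63*-low cells) of the surface ectoderm list and *TRIM29* (2.02 and 2.47) of the basal epidermal list. *MSX1* and *HAND1* of the surface ectoderm list were 2-fold lower. Median log2 folds were 0.40 and 0.26 for surface ectoderm factors, 0.52 and 0.46 for basal epidermal genes and 0.36 and 0.18 for trophectoderm factors. For amnion genes they were -0.47 and -0.22, beside -0.02 and -0.02 over all compared genes. Furthest down were the mesenchymal genes *DCN* (7.43 and 1.81 against 63.2 and 36.6) and *TWIST1* (23 and 10.1 against 142 and 84.1). *TAC3* (7.37 and 6.2 CPM in *TP63*-low cells) and *VTCN1* (3.07 and 2.41), lower against all other cells, were not lower here, and *CLDN10* (219 and 248, with 1155 and 1066 in *POU5F1*-high cells) was not 2-fold lower in both libraries. Of the amnion list *BMP4* (77.7 and 56.4) was the gene 2-fold lower here.

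Against *GABRP*-high cells, 33 of 11063 genes (0.298%) were at least 2-fold higher and 222 (2.01%) at least 2-fold lower. Over all compared genes the median log2 fold was 0.12 in each library, so single folds are read relative to that shift. *NETO1* (214 and 202 CPM against 78.5 and 78.7), *LRRC7* (149 and 175 against 57.9 and 68.5), *TACR1* (43.2 and 42.1 against 16.98 and 14.1) and *RORB* (60.5 and 72.4 against 27.2 and 27.6) were higher. *TAC3* (8.98 and 6.3 against 224 and 191), *S100A6* (200.4 and 205 against 2699 and 2782), the protease inhibitor *CST6* (111 and 125 against 786 and 816) and the estrogen sulfotransferase *SULT1E1* (0.805 and 1.22 against 30.6 and 36.9) were lower. The identity factors did not separate the groups in the same way. *TFAP2A* (373 and 359 CPM in *GABRP*-high cells) and *GRHL2* (393 and 364) were level, and *GATA3* (180.3 and 173), *ELF5* (185 and 188), *WNT6* (241 and 236), *ISL1* (110.4 and 102), *KRT8* (7824 and 7382) and *CYP17A1* (500.2 and 449) were all higher in the *GABRP*-high cells. Among the genes past 2-fold lower in the *TP63*-high cells were *HAND1* of the surface ectoderm list, *ELF3* of the trophectoderm list, *CYP11A1* and *CYP17A1* of the trophoblast products, and *VTCN1*, *POSTN*, *ITGB6* and *TNC* of the amnion list. *SFN* of the periderm list, *FRAS1* of the p63 target list and 1 of 8 compared basal epidermal genes were also past 2-fold lower. No gene of these lists was past 2-fold higher. Median log2 folds were -0.30 and -0.26 for surface ectoderm factors and -0.15 and -0.14 for basal epidermal genes. For trophectoderm factors they were -0.32 and -0.38 and for amnion genes -0.62 and -0.73, all below the median over all compared genes. *TP63* itself stood at 147 and 140.04 CPM there and at 288 and 268 in the *TP63*-high cells.

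Against *POU5F1*-high cells, 441 of 11354 genes (3.88%) were at least 2-fold higher and 442 (3.89%) at least 2-fold lower. *PDE3A* (420.1 and 400.2 CPM against 27.2 and 24.3), *TLX1* (26.2 and 26.5 against 0.97 and 1.16), *MEIS1* (331 and 318 against 35.6 and 39.4) and *ADAMTS19* (1193 and 1227 against 159.9 and 161) were among those higher, and *CXCL14* had 1559 and 1367 CPM in the *POU5F1*-high cells. Of the trophectoderm list 3 genes were 2-fold higher in *TP63*-high cells, *ELF5* (31.7 and 29.9 CPM in *POU5F1*-high cells) and *PPARG* (16.8 and 17.03) among them, and of the surface ectoderm list *TFAP2A* (185 and 163), *TFAP2B* (2.5 and 2.3), *WNT6* (30.2 and 25.1) and *BARX2* (1.32 and 1.58). *EOMES* of the trophectoderm list was 2-fold lower in *TP63*-high cells. Of the 7 compared amnion genes *ISL1* (9.2 and 8.21 CPM in *POU5F1*-high cells), *ITGB6* (2.59 and 1.98) and *TNC* (14.6 and 15.9) were 2-fold higher and *CLDN10* was 2-fold lower, and the list's median log2 fold was 0.97 and 1.32. The medians were 0.35 and 0.32 for surface ectoderm factors, 0.40 and 0.32 for basal epidermal genes (*TRIM29* 2-fold higher) and 0.11 and 0.26 for trophectoderm factors, beside -0.06 and -0.05 over all compared genes. *GATA3* was level, at 120.4 and 106 CPM in *POU5F1*-high cells.

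Of the 11205 genes, 1604 (14.3%) had their highest level of the 5 gated groups in the *TP63*-high cells in both libraries. Of the 18 higher genes 16 did, the others being *DOCK8* and *SERPINB5*, whose highest level was in *GABRP*-high cells (39.6 and 37.9 and 10.1 and 8.46 CPM). This follows in part from how the 18 were found. Of the identity lists, 1 of 16 surface ectoderm factors (*BARX2*), 2 of 7 basal epidermal genes (*DST*, *TRIM29*), 1 of 8 trophectoderm factors (*GATA2*) and 0 of 8 amnion genes peaked there. Of the p63 target list 5 of 21 did (*DST*, *JAG2*, *RIPK4*, *TRIM29* and *CDKN1A*).

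**Figure D3:**
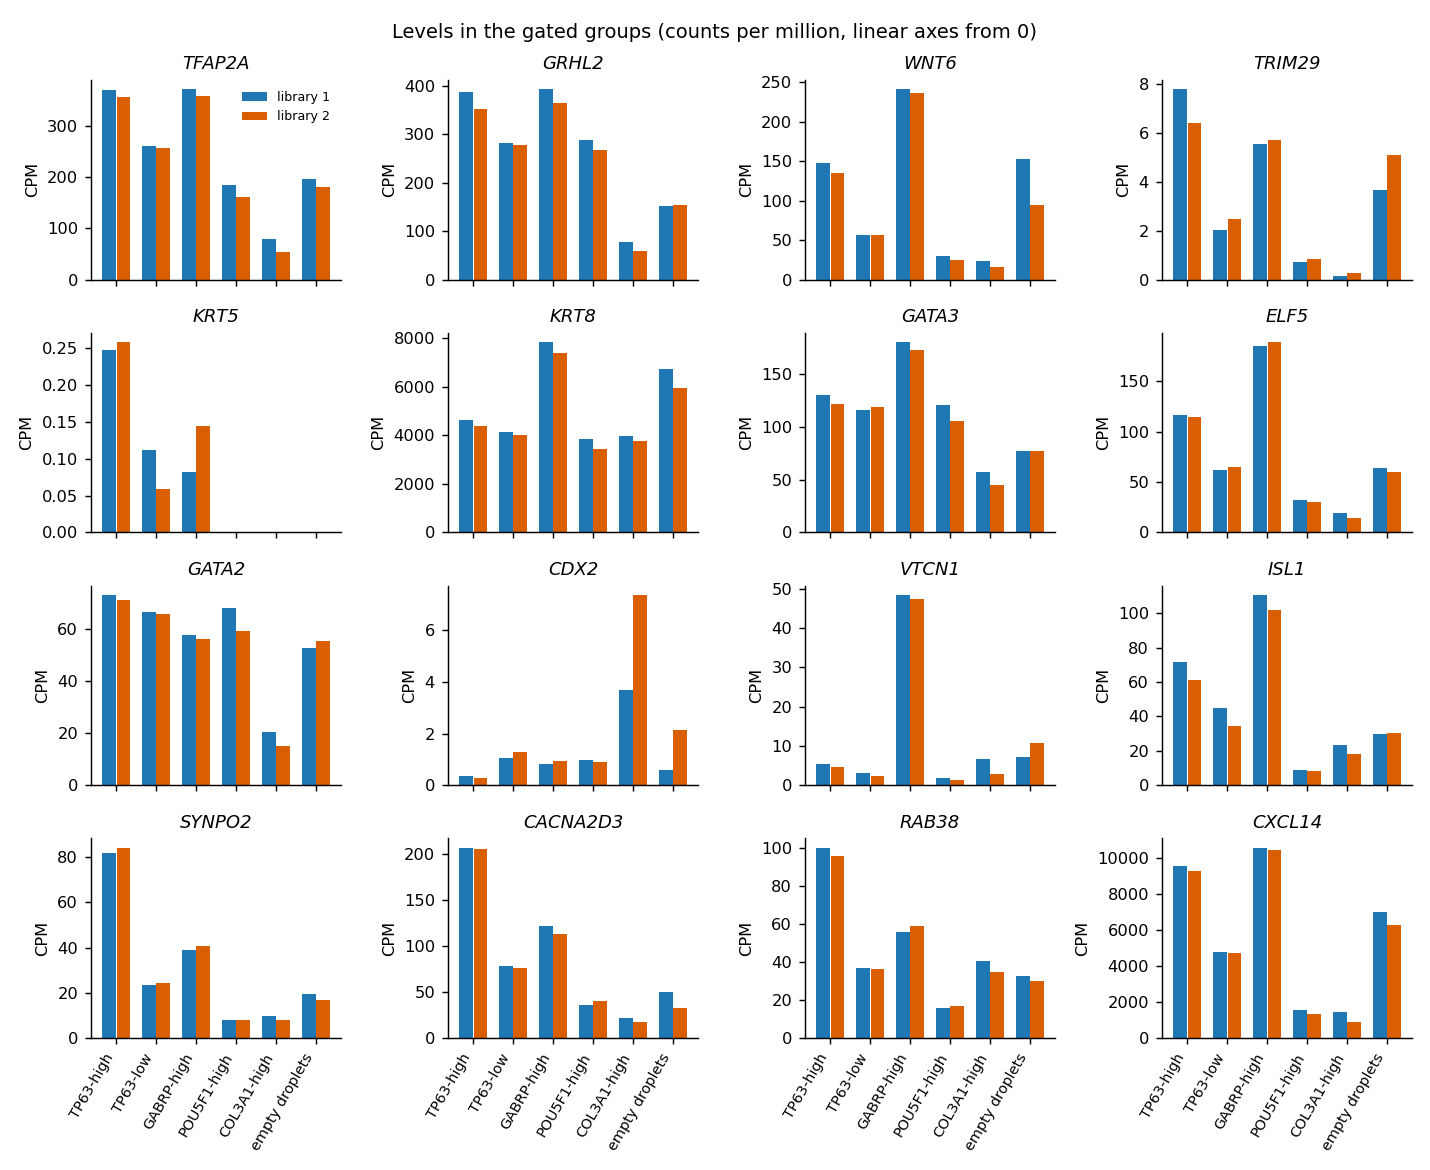
Level in CPM (linear axes from 0) of 16 genes in the 5 gated groups and in empty droplets, with library 1 and library 2 side by side. *SYNPO2*, *CACNA2D3* and *RAB38* are highest in *TP63*-high cells, whereas *WNT6*, *GATA3*, *ELF5*, *VTCN1* and *ISL1* are highest in *GABRP*-high cells and *KRT5* and *CDX2* lie near 0 in *TP63*-high cells.

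Within the cells under the other 4 gates, levels were read along the *TP63* count, in bins of 0, 1 to 3, 4 to 5, 6 to 9, and 10 or more UMIs. The bins held 2385, 948, 298, 344 and 347 cells in library 1 and 2744, 1003, 292, 309 and 253 in library 2. Median depth was 27275 and 24721 UMIs in the bin of 0, 26336 and 24041 in the bin of 4 to 5, and 30997 and 29678 in the highest, which was the deepest. The summed level of the 18 higher genes, which were found with these cells, went from 425 through 796, 1219.8 and 1440.4 to 1668 CPM in library 1. In library 2 it went from 412 through 803, 1159.9 and 1366 to 1709.5 CPM. As a ratio, the step across the threshold was smaller than the step below it in both libraries.

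The lists moved along the bins in different ways. Surface ectoderm factors summed to 1059 and 1009.9 CPM at 0 UMIs and 1341 and 1235 at 10 or more. Basal epidermal genes went from 351 and 363 to 562 and 534 CPM, carried by *DST* (161 and 157 to 269 and 251) and *PERP* (143 and 158 to 211 and 206), while *KRT5* was at 0.0794 and 0.328 CPM even in the highest bin. Trophectoderm factors went from 437 and 495 to 864 and 855 CPM. *GATA3* had 112 and 117 CPM in the lowest bin and 132 and 117 in the highest.

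Other genes moved mostly below the threshold. *CXCL14* went from 3569 and 3635 CPM at 0 UMIs to 7704 and 7429.5 at 1 to 3 and lay at 9313 and 8781 at 10 or more. Simple keratins summed to 7669 and 7984 CPM at 0 UMIs, to 10139.9 and 9939 at 4 to 5, and to 8941 and 8815 at 10 or more. Mesenchymal genes summed to 1280.5 and 789 CPM at 0 UMIs and to 189.6 and 118 at 4 to 5, and neural genes to 273 and 289.8 and then 111 and 129. *FGFR2* and *BMPR1B* continued upward above the threshold. *FGFR2* was at 144 and 128 CPM at 4 to 5 UMIs and 211 and 193 at 10 or more, and *BMPR1B* at 159 and 165 and then 224 and 227.

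**Figure D4:**
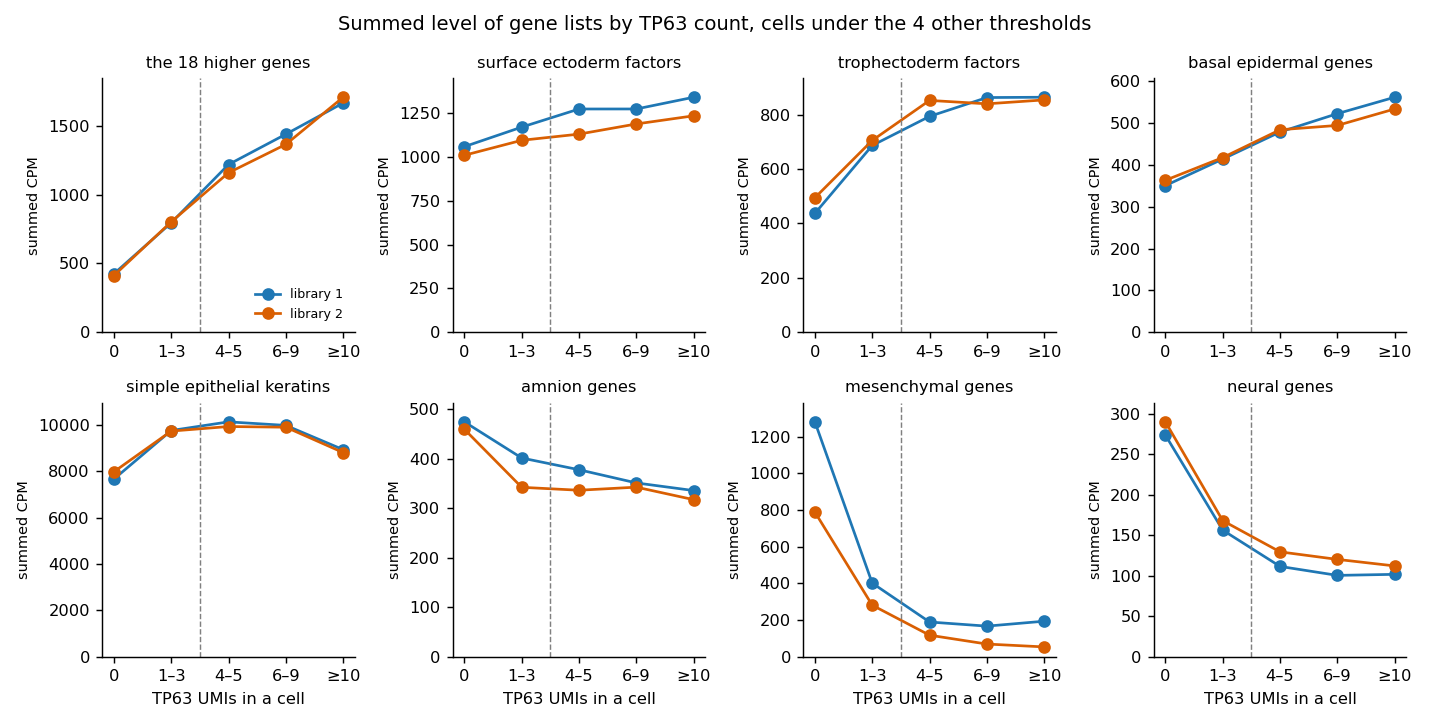
Summed CPM of 8 gene lists (linear axes from 0) by *TP63* UMIs in a cell, for cells under the other 4 gates, per library, with the threshold dashed. The 18 higher genes go from 425 and 412 CPM at 0 UMIs to 1668 and 1709.5 at 10 or more, while mesenchymal genes go from 1280.5 and 789 to 194 and 53.9.

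The share of cells with a UMI was compared after every cell had been thinned to 9805 UMIs, a depth that all cells reached. After thinning, *TFAP2A* was found in 95.9% and 94.03% of *TP63*-high cells (99.8% and 99.5% before), 73.3% and 75.9% of *TP63*-low cells and 22.3% and 17.6% of *COL3A1*-high cells, which are not a clean blank for epithelial RNA. *GATA3* was found in 67.8% and 65.2% of *TP63*-high cells (91.3% and 89.7% before), 55.9% and 57.6% of *TP63*-low cells and 23.9% and 22.1% of *COL3A1*-high cells. Median depths before thinning were 28515 and 26362 UMIs for *TP63*-high, 27231 and 24876 for *TP63*-low and 23633 and 20431 for *COL3A1*-high cells. *TFAP2A* and *GATA3* were found together in 65.6% and 61.6% of *TP63*-high cells (91.2% and 89.3% before), 53.4% and 51.1% of all other cells, 47.97% and 49.9% of *TP63*-low cells and 9.34% and 8.01% of *COL3A1*-high cells. In *GABRP*-high cells that share was 73.2% and 72.6%.

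*GRHL2* with *TFAP2A* occurred in 84.9% and 84.8% of *TP63*-high cells and 11.4% and 7.69% of *COL3A1*-high cells after thinning. This pair was as frequent in *GABRP*-high cells (83.8% and 83.6%), with 60.8% and 62.7% in *TP63*-low and 65.7% and 62.9% in all other cells. *GATA3* with *ELF5* occurred in 40.7% and 36.9% of *TP63*-high cells and 4.1% and 2.24% of *COL3A1*-high cells. It was more frequent in *GABRP*-high cells (54.8% and 57.6%), with 19.9% and 21.1% in *TP63*-low and 27.9% and 26.3% in all other cells. *KRT5* was found in 0.303% and 0.117% of *TP63*-high cells (0.809% and 0.82% before thinning). *CDX2* was found in 0.404% and 0.234% (1.21% and 0.937% before), against 2.96% and 5.77% of *COL3A1*-high cells. *SYNPO2* was found in 40.8% and 42.6% of *TP63*-high and 7.06% and 4.17% of *COL3A1*-high cells.

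In expression space the *TP63*-high cells were neighbours of one another but not a separate island. Among the 15 nearest neighbours of a cell (30 principal components of the 2000 most variable genes without the 5 rule genes), 38.5% and 35.97% of the neighbours of *TP63*-high cells were *TP63*-high, where such cells made up 13.4% and 10.4% of the libraries. A further 39.6% and 42.5% were *TP63*-low, 16.7% and 16.2% *GABRP*-high and 1.38% and 1.66% *POU5F1*-high. These groups made up 45.2% and 45.8%, 18.5% and 14.8%, and 10.3% and 15.2% of the libraries. The *TP63*-low share was thus below that of the library and the *GABRP*-high share near it. In 30.5% and 26.8% of *TP63*-high cells more than 50% of the neighbours were *TP63*-high, and 4.45% and 5.74% had none. For comparison, 67.9% and 65.5% of the neighbours of *GABRP*-high cells and 71.3% and 72.98% of those of *POU5F1*-high cells were of their own group.

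**Figure D5:**
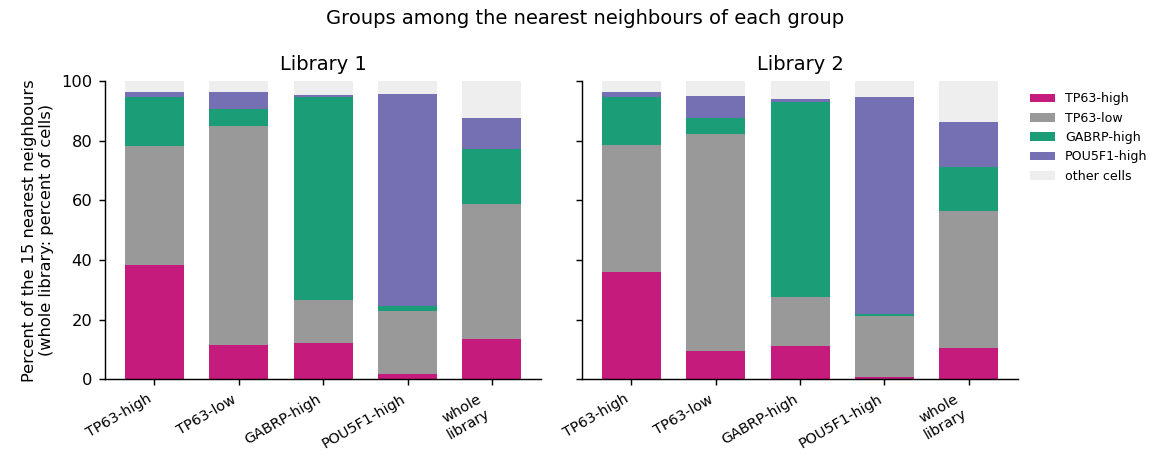
Mean makeup, in percent, of the 15 nearest neighbours of the cells of 4 gated groups, and the makeup of the whole library in the last bar, per library. The *TP63*-high share is 38.5% and 35.97% around *TP63*-high cells, and the *TP63*-low share around them is about as large. *TP63*-low cells make up 45.2% and 45.8% of the whole libraries.

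The *TP63*-high cells also varied among themselves. At 9805 UMIs per cell, 3388 genes with a mean of at least 0.5 UMI were ranked by their Fano factor (variance over mean, 1 for counting noise alone), whose median was 1.15 and 1.14, in the order of the lower of the libraries' factors. *CXCL14* ranked first with factors of 25.4 and 25.9. Its 10th percentile was 31 and 34.3 UMIs and its 90th percentile 165 and 165. *S100A6* had factors of 24.3 and 59.6, a median of 0 and a highest cell of 130 and 290 UMIs, and *TAGLN*, a smooth muscle and stress fibre gene, factors of 22.4 and 20. *TMSB4X* (18.1 and 21.5), *TENM2* (16.9 and 16.3), *KRT18* (12.6 and 11.7), the mitochondrial gene *COX1* (10.3 and 10.2) and *KRT8* (11.1 and 9.72) followed. *CYP17A1* was present in 42.7% and 37.6% of the cells with factors of 5.56 and 6.4, and *PDE3A* in 68.5% and 69.4% with 7.43 and 6.66.

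Quality and cycling were also compared. The *TP63*-high cells had a median depth of 28515 and 26362 UMIs against 29978 and 27752 in all other cells, and a median mitochondrial share of 0.626 and 0.617 against 0.583 and 0.565 percent. The doublet caller's own threshold marked 1 and 0 cells, so the top scores at the expected rate were taken as doublets. These made up 6.67% and 6.09% of *TP63*-high cells against 5.77% and 6.60% of all other cells. Of 39 compared S phase genes and 49 compared G2M phase genes none passed 2-fold against all other cells, while 30 and 36 were lower in both libraries by less. Of all 11205 genes 4950 were lower in both libraries. The lists summed to 2528 and 2660.1 CPM against 2850.4 and 2979.8 and to 3687 and 3779.7 against 4112 and 4236. Against *TP63*-low cells, 31 S phase and 41 G2M phase genes were lower in both libraries, none by 2-fold, beside 5128 of all 11190 genes. Against *GABRP*-high cells, 37 and 48 were higher in both, again none by 2-fold, beside 6992 of all 11063 genes and an upward shift of all genes.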

How the data were processed

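Both scRNA-seq libraries of day 6 porcine blastoids were used, and the 3 bulk pESC libraries were not used here. The deposited counts are raw UMI counts per gene for every barcode, which the authors made with Cell Ranger 7.1.0 on susScr11 (Sscrofa11.1) after checking reads with Dr.seq2. Of 30029 gene names, 29862 (99.4%) were found in the RefSeq annotation. The rule for the cells, the gene lists and the comparisons were chosen with earlier results of these data known, and some lists were taken from that earlier work, so no count is independent support.

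Counts were summed per library over each group of cells and divided by the group's total to give CPM. A gene was compared where the higher side had at least 5 CPM in each library, with a pseudocount of 1 CPM, and was called at 2-fold or more in both libraries. As the libraries share 1 condition, no test was made. Named were the 5 rule genes, every compared gene of the surface ectoderm, basal epidermal, trophectoderm and amnion lists, up to 4 of each other list, the 20 genes furthest up and 10 furthest down with at least 20 CPM, and *SOX2*, *GATA4*, *GATA6*, *KRT8*, *SFN* and *CDX2*. Some genes of these lists are counted but not reported here by name or drawn. Genes named only in the comparisons with *TP63*-low, *GABRP*-high and *POU5F1*-high cells, along the *TP63* bins or for their Fano factor were chosen after their values were seen. Scrublet (scanpy 1.11.5) scored doublets, which were kept. Calls were tested on simulated counts for *TP63*-high over all other cells, where 80 of 80 genes made 3-fold higher, 77 of 80 made 3-fold lower (96.25%), 0 of 40 made 1.5-fold higher and 0 of 10816 left unchanged were called. The simulation held counting noise and slight noise per gene, with no selection of cells on the counts and no mix of cell types. It checks the calling rule and does not give an error rate for the real calls. Python 3.11.15 and R 4.3.3 with edgeR 4.0.16 and DESeq2 1.42.0, the latter pair for scaling factors only, were used.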

Additional observations from a re-analysis of the deposited data

How the results depend on the processing

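The mean share of *TP63*-high cells was 14.73% with at least 3 *TP63* UMIs and 8.126% with at least 6, against 11.93% as reported, and 13.42 and 10.45% with 1 library left out. The count of higher genes (18) was 29 without library 1 and 20 without library 2, with all 18 among them each time, 6 with a pseudocount of 10 CPM and 55 against *TP63*-low cells, of which 16 were among the 18. The count of lower genes (175) was 41 with that pseudocount and 78 with a minimum of 20 CPM, and 213 to 237 with 1 library left out. *TRIM29* made the basal epidermal count 1 instead of 0 with thresholds scaled to depth, without library 2, with a pseudocount of 0.1 CPM, with the mean of single-cell CPM, after thinning and against *TP63*-low cells. It was 0 without library 1. Against *TP63*-low cells the surface ectoderm and trophectoderm counts were also 1 each, the former from *WNT6*. With these cells as reference the mean log2 fold turned to 0.1365 for *TAC3*, 0.5648 for *LOC100626247*, 0.1742 for *ISG12(A)* and 0.6935 for *VTCN1*. The other 88 alternative values of shares and counts kept within 1.5 times or within their spread. Of the log2 folds of single genes, 1246 alternative values moved by less than 1 SD between the libraries, 494 by more, and 4 are the reversals above, which were counted for called genes only. Scaling by TMM or by median-of-ratios factors gave 19 higher genes each, the 18 among them.

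Only the gates on single genes, some with few UMIs, define the cells, so a cell with few *TP63* UMIs can fall on either side by counting alone, and leaving out 1 library leaves a single value with no replicate. No paired analysis was possible because no result comes from a test. This was a choice, since the libraries are not said to be separate cultures, and each fold was taken within its own library.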
